A study of Homo sapiens with 6 samples.

Results

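Epithelial-to-mesenchymal transition (EMT) is driven by a small group of transcription factors, and chromatin accessibility at the 6 best known of them and at the 2 cadherins they switch was measured by ATAC-seq in A375 melanoma cells with and without overexpression of HMGB2. The factors are ZEB1 and ZEB2, SNAI1 and SNAI2, and TWIST1 and TWIST2. The cadherins are CDH1 (E-cadherin) and CDH2 (N-cadherin). A peak was given to one of these genes when its centre lay in the gene body of GENCODE release 44, or when it was intergenic and the nearest protein-coding start site was that of the gene. This gave 223 of the 152800 peaks in the table, and all 223 had enough counts to be tested. They were divided as 74 for ZEB2, 58 for CDH2, 29 for TWIST2, 23 for ZEB1, 17 for SNAI1, 9 for CDH1, 8 for SNAI2 and 5 for TWIST1. Of them, 63 lay in gene bodies and 160 between genes.

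ZEB and SNAI proteins bind E-boxes, short palindrome-like DNA words, and repress CDH1, which encodes the adhesion protein of epithelial sheets. TWIST proteins are basic helix-loop-helix factors that bind related E-boxes and favour CDH2, the adhesion protein of mesenchymal and neural cells. Melanocytes descend from the neural crest, a migratory tissue in which SNAI2 and ZEB2 are needed, so these genes mark the lineage itself as well as EMT. In melanoma, ZEB2 and SNAI2 are associated with differentiated states, and ZEB1 and TWIST1 with invasive ones.

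A375 is an established human melanoma line. Both groups were stable lines that had been transduced with lentivirus and selected with an antibiotic, 3 libraries carrying the empty vector and 3 carrying an HMGB2 expression plasmid (HMGB2OE). HMGB2 is a chromatin protein that bends DNA. The study describes the 3 libraries of each condition as technical replicates of an experiment done once, so p-values here measure the spread between libraries and not between independently made lines, and the line and the construct cannot be told apart. Cells were frozen before nuclei were treated with Tn5, the transposase that cuts open chromatin.

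The 6 libraries held 26910189 to 45645294 counts in peaks. Both HMGB2 peaks that overlap its coding exons were higher in HMGB2OE libraries (log2 fold changes 1.67 and 1.16, adjusted p = 0.000113 and 0.00822 by edgeR's quasi-likelihood test), where copies of the construct and the endogenous gene cannot be told apart. Among melanocyte markers, MITF and SOX10 had strong start-site peaks (1295 and 862 normalized counts), while TYR and DCT had none. Those of PMEL, MLANA and TYRP1 were weaker (295, 154 and 152 counts), within or near the range of the lists that follow. Start-site peaks were present for 5 of 6 epithelial markers, at 118 to 336 counts, and for 3 of 6 blood and endothelial markers, at 151 to 248. The summed level of these peaks in empty vector and HMGB2OE libraries was 2803 and 2713 for the melanocyte list, 1145 and 1291 for the epithelial list and 615 and 596 for the blood and endothelial list. None of the marker peaks passed an adjusted p of 0.05. Accessibility is not expression, and no RNA level is given here.

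Start sites were examined first, since a start-site peak reports whether the promoter region of a gene was open. A start-site peak was defined as one centred within 3 kb of the start of any transcript of its gene, and the strongest one stood for the gene. Normalized counts are comparable between genes here because nearly every peak spans 502 bp. SNAI2 had the most open start site, with 998 to 1265 counts over the 6 libraries, which placed it at percentile 77.6 among 15244 genes with such a peak. Its range overlapped that of no other gene of the group.

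CDH1 (650 to 777 counts), SNAI1 (606 to 931) and CDH2 (503 to 655) came next, and the ranges of these 3 genes overlapped. ZEB2 (374.9 to 453), TWIST1 (270 to 373) and ZEB1 (213 to 318) followed, of which the last pair overlapped. TWIST2 was lowest, with 136 to 185 counts at percentile 17.1. The CDH1 value does not come from its canonical promoter. No peak lay within 3 kb of the canonical CDH1 start, and its strongest start-site peak sat 23.7 kb inside the gene, 2318 bp from the start of a shorter transcript. The other genes had 1 to 3 peaks within 3 kb of their canonical start.

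**Figure D1:**
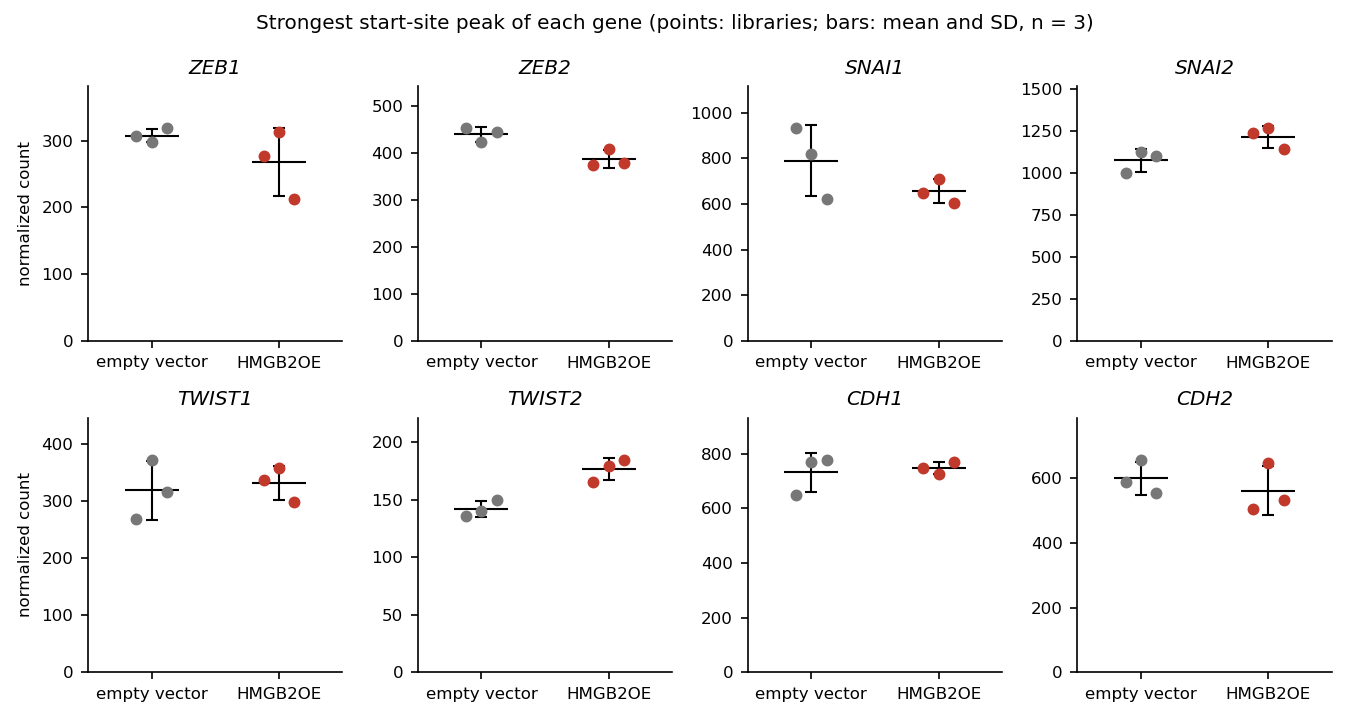
Normalized count (y axis, from 0, scaled per gene) of the strongest start-site peak of each of the 8 genes, with 1 point per library and the mean and SD of 3 libraries for empty vector and HMGB2OE. SNAI2 is the highest at 998 to 1265 counts and TWIST2 the lowest at 136 to 185, and no gene passed the test between conditions.

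None of the 8 strongest start-site peaks differed between conditions past the test. At SNAI2, the empty vector libraries had 998, 1125 and 1103 counts and the HMGB2OE libraries 1236, 1265 and 1143. All 3 HMGB2OE libraries lay above all 3 empty vector libraries, with a log2 fold change of 0.17 (SE 0.0808, adjusted p = 0.209 by edgeR). With a loess trend as the scaling it passed, under the fold limit (log2 fold change 0.23, adjusted p = 0.0209). TWIST2 showed the same separation at a lower level, with 136, 140 and 150 counts against 166, 179 and 185 (log2 fold change 0.31, SE 0.135, adjusted p = 0.176 by edgeR).

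ZEB2 was separated in the other direction. Its strongest start-site peak, 2.58 kb inside the canonical start and 8 bp from an alternative one, had 453, 423 and 445 counts in empty vector and 374.9, 410 and 379 in HMGB2OE libraries (log2 fold change -0.18, adjusted p = 0.318 by edgeR). The ZEB2 peak at the canonical start was of nearly the same level, 414 counts, with a log2 fold change of 0.0036. At SNAI1 the empty vector libraries were spread widely, with 931, 817 and 623 counts, and overlapped the HMGB2OE libraries at 650, 711 and 606 (log2 fold change -0.27, adjusted p = 0.140 by edgeR). Without empty vector replicate 3, the lowest of its group, the SNAI1 value passed under the fold limit (-0.41, adjusted p = 0.0159). The libraries of ZEB1, TWIST1, CDH1 and CDH2 overlapped too, with log2 fold changes of -0.19, 0.047, 0.028 and -0.097.

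Over all peaks of the 8 genes, rises and falls were about evenly split. The log2 fold change was above 0 at 112 peaks and below 0 at 111, with a median of 0.0012, beside -0.0049 over all tested peaks. A peak was called when its adjusted p was under 0.05 and its fold change at least 1.5. By this rule 4 peaks were higher (1.79%) and 5 lower (2.24%) in HMGB2OE, while of all 150117 tested peaks 1.87% were higher and 1.44% lower. The 9 called peaks are 4.04% of the 223, close to the 3.31% of all tested peaks. Without the fold limit 15 peaks passed (6.73%, beside 6.47% of all). The 3 libraries of one condition lay wholly above the 3 of the other at 26 peaks that were higher (11.7%, beside 12.6% of all) and 24 that were lower (10.8%, beside 12.5%). These shares lie near the background in each case.

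The 9 called peaks lay away from the canonical promoters. Of the 160 intergenic peaks, 8 were called, where 3.69% of all intergenic peaks were, and 1 of 27 start-site peaks was called, at an alternative CDH1 start (3.70%, beside 1.58%). None of the 39 gene body peaks away from start sites was called, where 3.72% of all such peaks were. ZEB2 and CDH2, which have the largest intergenic surroundings, each had 1 called rise and 2 called falls. SNAI2 and TWIST2 had 1 rise each and CDH1 had 1 fall. No peak of ZEB1, SNAI1 or TWIST1 was called.

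**Figure D2:**
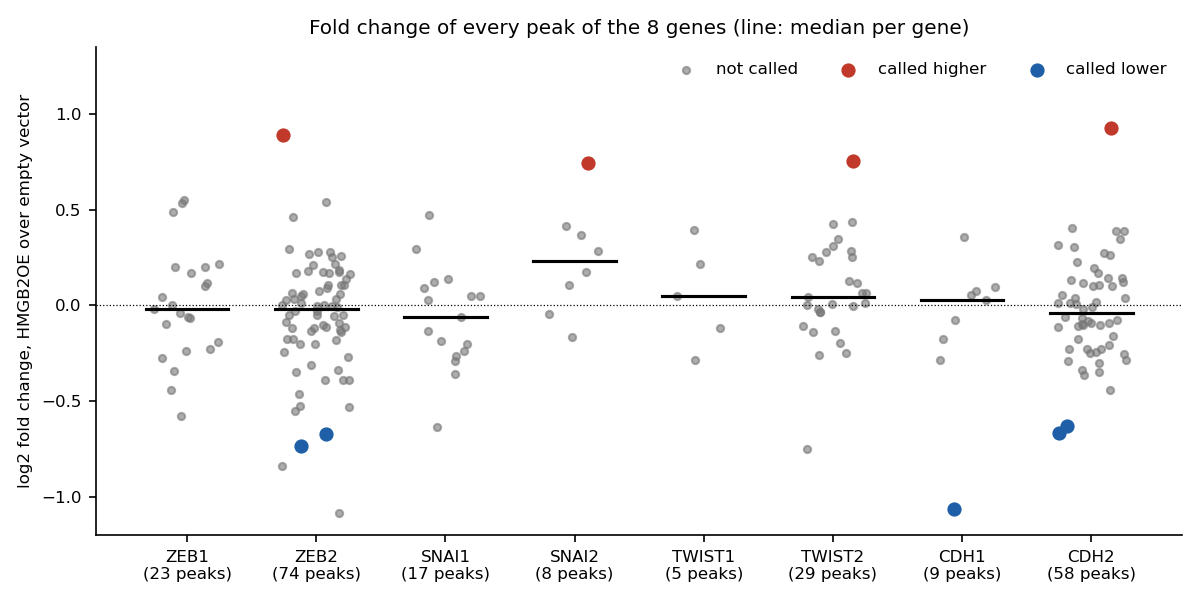
Log2 fold change of HMGB2OE over empty vector (y axis) for each of the 223 peaks, grouped by gene along the x axis, with the median of each gene as a line and called peaks in colour. The median is nearest to 0 for ZEB1 and ZEB2 and highest for SNAI2 (0.23), and the 9 called peaks belong to 5 genes.

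The fall at CDH1 had the largest fold of the 9 calls. The peak lies in an intron, 26.9 kb inside the canonical start and 891 bp from an alternative start (chr16:68763935-68764436, hg38). It had 68.1, 80.9 and 74.9 counts in empty vector libraries and 33.2, 34.2 and 40.5 in HMGB2OE libraries. Each HMGB2OE library lay below each empty vector library, with means of 74.6 ± 6.39 and 36.0 ± 3.99 (SD, n = 3 each), and the log2 fold change was -1.07 (SE 0.232, adjusted p = 0.00478 by edgeR). It was called under all alternatives tried, including each library left out. The peak is a weak one, at percentile 23.3 of all tested peaks.

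The strong CDH1 peak described above lies next to it (chr16:68760726-68761227) and had means of 732 ± 70.9 and 749 ± 22.8 (SD, n = 3 each). The intronic peak at chr16:68786519-68787020, also strong, had means of 570 and 611 (log2 fold change 0.10, adjusted p = 0.616 by edgeR). Counts over the 9 CDH1 peaks together were 2192 ± 90.9 and 2257 ± 69.3 (SD, n = 3 each; log2 fold change 0.039, adjusted p = 0.643 by edgeR). The other 8 CDH1 peaks were not called.

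The middle 200 bases of these CDH1 peaks are shown because the fallen and the strong peak lie next to each other and both hold E-box words. Capitals mark matches, on either strand, to CACCTG, the E-box of ZEB and SNAI proteins, and to CATCTG, an E-box of TWIST proteins. They also mark TGACTCA, the word of AP-1 factors, and ACAAAG, the word of SOX factors. Both CDH1 peaks also hold CACCTG at 1 place, which lies outside the window shown. All sequences are the + strand of hg38.
CDH1 fallen peak, chr16:68764086-68764285: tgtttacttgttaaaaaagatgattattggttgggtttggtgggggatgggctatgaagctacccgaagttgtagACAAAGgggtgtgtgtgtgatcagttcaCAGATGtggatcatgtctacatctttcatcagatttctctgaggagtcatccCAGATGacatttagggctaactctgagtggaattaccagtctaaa
CDH1 strong peak, chr16:68760877-68761076: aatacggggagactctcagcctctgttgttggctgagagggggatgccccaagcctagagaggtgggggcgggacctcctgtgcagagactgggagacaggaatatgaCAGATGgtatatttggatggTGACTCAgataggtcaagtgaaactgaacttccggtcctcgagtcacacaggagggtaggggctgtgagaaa

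Around CDH2, the called peaks were all far upstream of the gene. The one that rose lies 559 kb upstream (chr18:28735635-28736136), in a long non-coding RNA gene. It had 25.0, 49.0 and 36.3 counts in empty vector and 70.6, 69.2 and 76.6 in HMGB2OE libraries. The HMGB2OE libraries all lay above the empty vector libraries (log2 fold change 0.93, SE 0.244, adjusted p = 0.0195 by edgeR). The call depended on single libraries: without empty vector replicate 1 or 3, or any of the HMGB2OE libraries, the adjusted p rose to between 0.0515 and 0.0773.

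Both CDH2 peaks that fell are stronger. At 978 kb upstream (chr18:29154897-29155398) the counts were 281, 347 and 303 in empty vector and 165, 231 and 193 in HMGB2OE libraries. Here too the groups did not overlap (log2 fold change -0.67, SE 0.129, adjusted p = 0.00178 by edgeR). At 1325 kb upstream (chr18:29501924-29502425) the counts were 284, 318 and 268 against 194, 217 and 149 (log2 fold change -0.63, SE 0.131, adjusted p = 0.00341 by edgeR). The fold of the first peak dropped under the limit without empty vector replicate 2 (log2 fold change -0.57) or HMGB2OE replicate 1 (-0.55). That of the second did so without empty vector replicate 2 (-0.55) or HMGB2OE replicate 3 (-0.50), and with GC-content offsets (-0.51). At such distances the nearest start site need not be the gene that a region serves.

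The windows of the stronger fallen and of the risen CDH2 peak are shown as examples of each direction. The first holds the TWIST E-box word at 3 places in its middle 200 bases. The risen peak holds none of the words there, but the AP-1 word lies outside the window, and the other fallen peak holds only the SOX word.
CDH2 fallen peak, chr18:29155048-29155247: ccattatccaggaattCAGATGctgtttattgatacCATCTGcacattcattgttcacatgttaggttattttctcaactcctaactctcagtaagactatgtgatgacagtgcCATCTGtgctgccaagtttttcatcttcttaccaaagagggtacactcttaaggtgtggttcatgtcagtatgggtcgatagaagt
CDH2 risen peak, chr18:28735786-28735985: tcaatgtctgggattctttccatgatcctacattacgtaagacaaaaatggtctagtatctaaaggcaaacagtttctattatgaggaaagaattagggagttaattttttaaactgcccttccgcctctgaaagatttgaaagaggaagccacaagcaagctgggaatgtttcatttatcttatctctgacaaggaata

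The called ZEB2 peaks all lay upstream of the gene inside TEX41, a long non-coding RNA gene, which holds 36 of the 74 ZEB2 peaks. Those 36 had a median log2 fold change of -0.052. The peak 434 kb upstream (chr2:144953891-144954392) fell, with 174, 207 and 220 counts in empty vector and 127, 129 and 105 in HMGB2OE libraries. The groups did not overlap, and the log2 fold change was -0.73 (SE 0.142, adjusted p = 0.00175 by edgeR). It was called under all alternatives tried.

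A weaker peak 477 kb upstream (chr2:144996472-144996973) fell from 91.7, 81.7 and 76.1 to 54.4, 51.7 and 49.5 counts (log2 fold change -0.67, adjusted p = 0.0438 by edgeR). This call was lost whichever library was left out, with GC-content offsets (adjusted p = 0.108), with library size only (0.0561) and with DESeq2 (0.0910). The peak 524 kb upstream (chr2:145043396-145043897) rose from 51.4, 77.4 and 42.1 to 91.0, 105 and 131 counts (log2 fold change 0.89, SE 0.211, adjusted p = 0.00930 by edgeR). It was lost without empty vector replicate 3 (adjusted p = 0.0526) or HMGB2OE replicate 3 (adjusted p = 0.0601). Falls and a rise were thus found in the same non-coding gene. Of 2 further ZEB2 peaks that passed the test under the fold limit, the one 76.3 kb upstream was higher (log2 fold change 0.54, adjusted p = 0.00463 by edgeR) and the one 965 kb upstream lower (-0.46, adjusted p = 0.0277). The latter no longer passed without empty vector replicate 1 or 2 or HMGB2OE replicate 1 or 2, with adjusted p from 0.0934 to 0.137.

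The windows of the ZEB2 peak that fell in all alternatives and of the one that rose are shown for comparison, since they lie in the same non-coding gene and moved in opposite directions. The fallen window holds the SOX word and the risen one none of the words. In the fallen peak the AP-1 word lies outside the window. The window of the other fallen ZEB2 peak, not shown, holds the SOX and the TWIST word.
ZEB2 fallen peak, chr2:144954042-144954241: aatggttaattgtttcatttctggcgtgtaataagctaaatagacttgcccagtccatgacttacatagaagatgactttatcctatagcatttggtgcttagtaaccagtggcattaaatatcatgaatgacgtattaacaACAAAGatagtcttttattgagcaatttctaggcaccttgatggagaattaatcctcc
ZEB2 risen peak, chr2:145043547-145043746: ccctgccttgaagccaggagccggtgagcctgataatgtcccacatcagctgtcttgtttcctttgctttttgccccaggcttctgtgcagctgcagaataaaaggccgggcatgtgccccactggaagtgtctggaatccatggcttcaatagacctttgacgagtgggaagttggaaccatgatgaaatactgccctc

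The TWIST2 peak that rose lies 90.8 kb downstream of the start (chr2:238938609-238939110). Its counts were 51.4, 63.7 and 57.3 in empty vector and 96.9, 95.1 and 102 in HMGB2OE libraries. The spread within each group was small against the gap between them (log2 fold change 0.76, SE 0.190, adjusted p = 0.0140 by edgeR). Without HMGB2OE replicate 1 the adjusted p was 0.0524. Its window holds the AP-1 word and is shown as the only called window of the group that does. Outside their windows, the fallen CDH1 peak, the risen CDH2 peak and the ZEB2 peak 434 kb upstream hold this word too.
TWIST2 risen peak, chr2:238938760-238938959: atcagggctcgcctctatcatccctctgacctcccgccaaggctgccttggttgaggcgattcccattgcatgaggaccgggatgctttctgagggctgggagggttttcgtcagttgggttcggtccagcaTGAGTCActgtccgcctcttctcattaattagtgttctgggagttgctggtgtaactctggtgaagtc

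The SNAI2 peak that rose lies 58.0 kb downstream of the start (chr8:48863150-48863651). It had 80.6, 70.6 and 84.3 counts in empty vector and 143, 122 and 127 in HMGB2OE libraries. The groups were well apart, with a log2 fold change of 0.74 (SE 0.166, adjusted p = 0.00602 by edgeR). Without HMGB2OE replicate 1 the adjusted p was 0.0507. A far stronger SNAI2 peak 21.4 kb downstream (chr8:48899763-48900264) had 685, 773 and 786 counts in empty vector and 985, 940 and 1077 in HMGB2OE libraries. It passed the test but not the fold limit (log2 fold change 0.42, adjusted p = 0.00351 by edgeR). The third strong peak, 29.7 kb downstream, had a log2 fold change of -0.047, so the strong peaks around SNAI2 did not all move together.

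**Figure D3:**
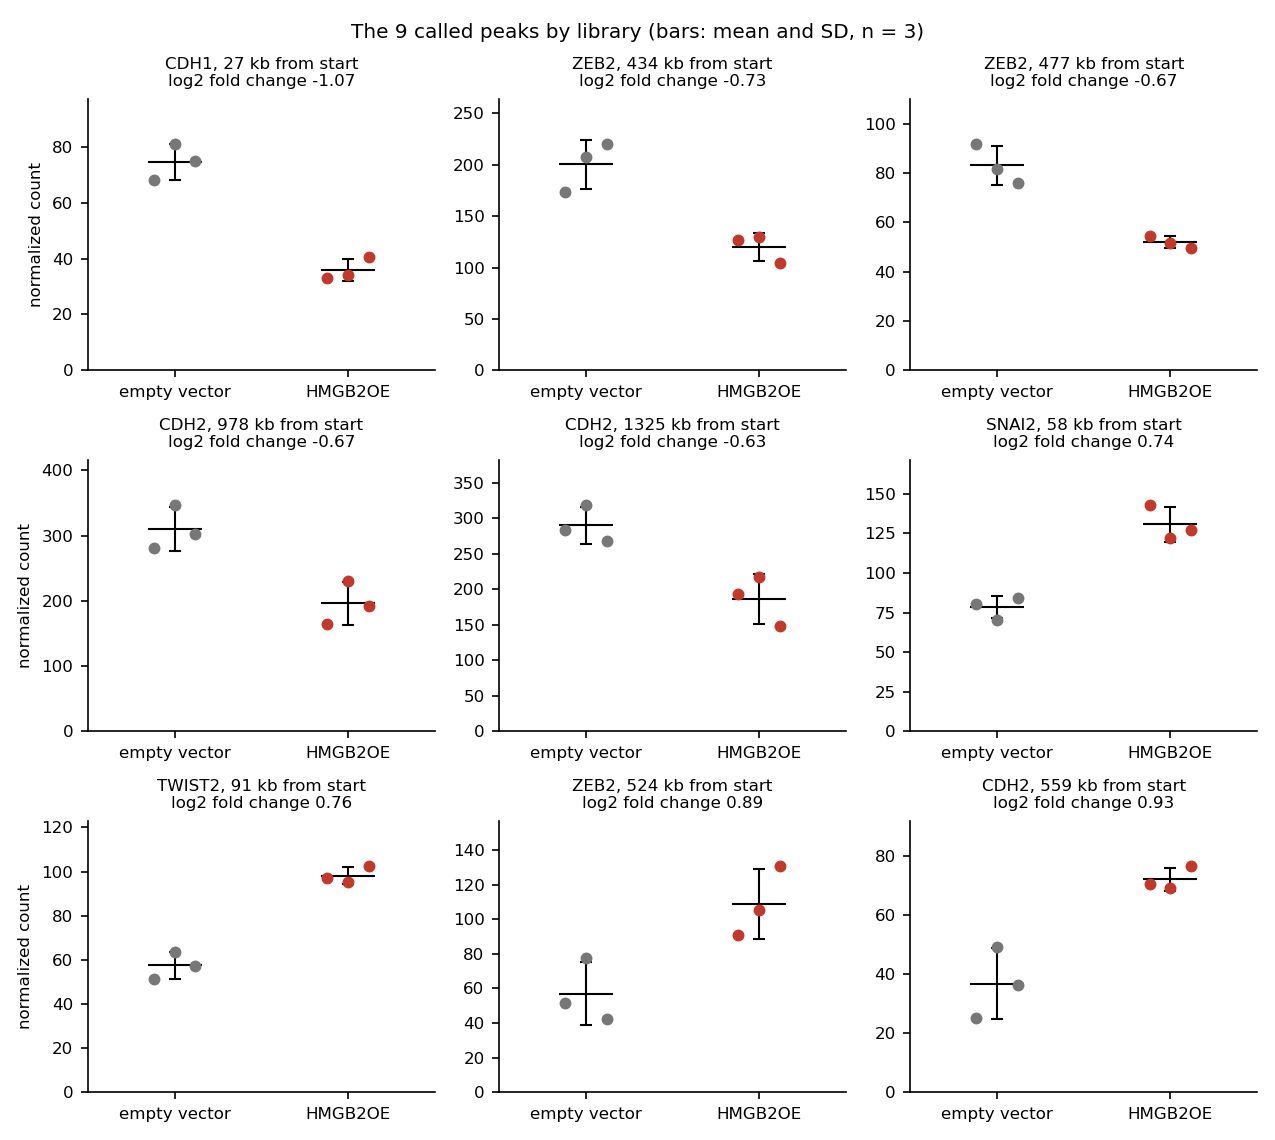
Normalized count (y axis, from 0, scaled per panel) of the 9 called peaks, with 1 point per library and the mean and SD of 3 libraries per condition, ordered from the largest fall (CDH1, log2 fold change -1.07) to the largest rise (CDH2, 0.93). In each panel the 3 HMGB2OE libraries lie wholly above or wholly below the 3 empty vector libraries.

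In genes without a called peak, each peak missed the adjusted p, the fold limit or both. For ZEB1, a peak 264 kb downstream passed the test under the fold limit, with 131, 163 and 190 counts against 208, 249 and 225 (log2 fold change 0.49, adjusted p = 0.0283 by edgeR). It no longer passed without empty vector replicate 1 or 2 or HMGB2OE replicate 2 or 3, with adjusted p from 0.0535 to 0.138. The highest ZEB1 value was at a weak peak 281 kb downstream, with 26.4, 25.0 and 22.2 counts against 34.9, 35.0 and 38.3 (log2 fold change 0.55, adjusted p = 0.332). The libraries of this peak did not overlap, but it did not pass the test. The lowest ZEB1 value was at a weak intronic peak with 52.8, 49.0 and 44.5 counts against 29.8, 33.4 and 34.9 (log2 fold change -0.58, adjusted p = 0.217). The strongest peak of all 223 was also a ZEB1 peak, 302 kb downstream, with 1486 counts and a log2 fold change of 0.0035.

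For SNAI1, a peak 64.2 kb downstream had 257, 246 and 270 counts against 376, 337 and 358 (log2 fold change 0.47, adjusted p = 0.00855 by edgeR), under the fold limit. Without HMGB2OE replicate 1 the adjusted p was 0.0640. The lowest SNAI1 value, at an upstream peak, did not pass (log2 fold change -0.63, adjusted p = 0.0844). For TWIST1, the highest log2 fold change was 0.39 at an intronic peak with 164, 145 and 131 counts against 192, 204 and 180 (adjusted p = 0.0774 by edgeR), and the lowest was -0.28. Neither TWIST1 peak passed the test, although the libraries of both did not overlap between conditions. The first of them passed, under the fold limit, with 10 Mb windows centred (adjusted p = 0.0428) and with the replicate block and GC-content offsets (0.0441).

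**Figure D4:**
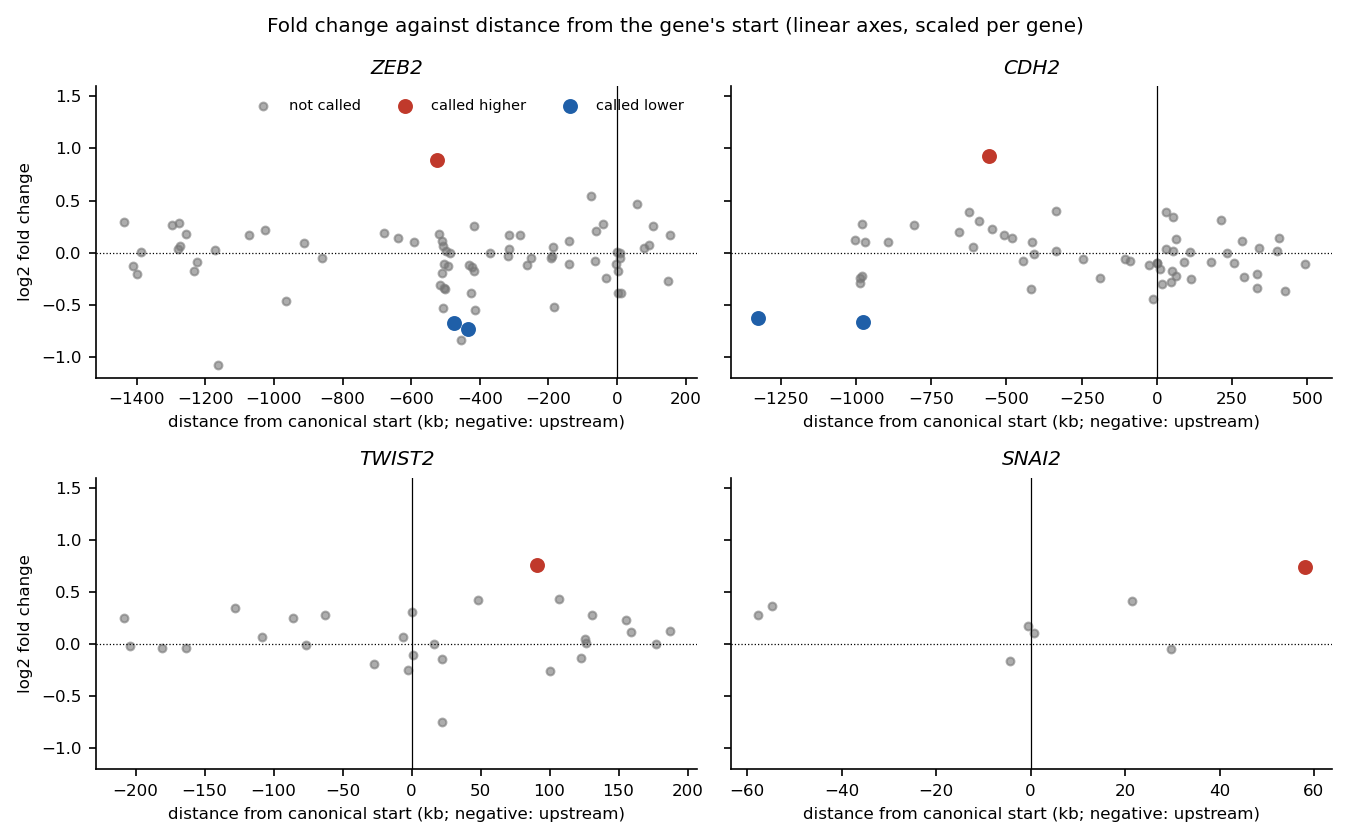
Log2 fold change (y axis) against the distance of a peak from the canonical start of its gene in kb (x axis, negative upstream, scaled per gene) for the 4 genes with called intergenic peaks. The called CDH2 and ZEB2 peaks lie 434 to 1325 kb upstream, and the called TWIST2 and SNAI2 peaks 90.8 and 58.0 kb downstream.

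To ask whether the total count of a locus differed, counts were summed over all peaks of each gene and tested among 18013 genes. Peaks with high counts weigh most in such a sum, so it does not show that all peaks of a gene moved. SNAI2 was the only one of the 8 past an adjusted p of 0.05, where 9.23% of all genes passed and 5.68% passed as higher. The summed SNAI2 counts were 2995, 3243 and 3078 in empty vector and 3634, 3612 and 3588 in HMGB2OE libraries. The HMGB2OE libraries lay close together and above all empty vector libraries. Of the 8 SNAI2 peaks, 6 had a log2 fold change above 0 and 2 below. The means were 3105 ± 126 and 3612 ± 23.0 (SD, n = 3 each), a rise of 16.2% (log2 fold change 0.22, SE 0.0418, adjusted p = 0.00408 by edgeR).

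The SNAI2 call held in all alternatives tried, with an adjusted p between 0.000195 and 0.0295. It ranked 284 among all genes by p. Without its start-site peaks the log2 fold change was 0.19, and after centring of windows of 10 Mb it was 0.18. Part of the region around SNAI2 was also higher. The 68 peaks of other genes within 1 Mb had a median log2 fold change of 0.12. Of them, 9 were called higher and 0 lower, where 1.87% and 1.44% of all tested peaks were. The 9 belonged to CLXN (4), UBE2V2 (3) and PPDPFL (2). Among all neighbours within 1 Mb, the summed counts of CLXN (log2 fold change 0.20, adjusted p = 0.00556 by edgeR) and PPDPFL (0.45, adjusted p = 0.00387) were higher. Those of PRKDC (-0.35, adjusted p = 0.00659) and MCM4 (-0.21, adjusted p = 0.0131) were lower, and that of UBE2V2 did not pass (0.015, adjusted p = 0.861). The part of the region in the SNAI2 value was not tested.

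TWIST1 followed, with summed counts of 613, 648 and 613 in empty vector and 657, 735 and 708 in HMGB2OE libraries. The groups did not overlap but the sum did not pass (log2 fold change 0.16, SE 0.0742, adjusted p = 0.183 by edgeR). The other 6 genes had log2 fold changes between -0.034 (CDH2) and 0.056 (TWIST2), with adjusted p from 0.379 to 0.933, and their libraries overlapped. Summed counts per peak ranked SNAI2 first (420 counts), before SNAI1 (280), ZEB1 (254), CDH1 (247), CDH2 (193), TWIST2 (170), ZEB2 (167) and TWIST1 (132).

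**Figure D5:**
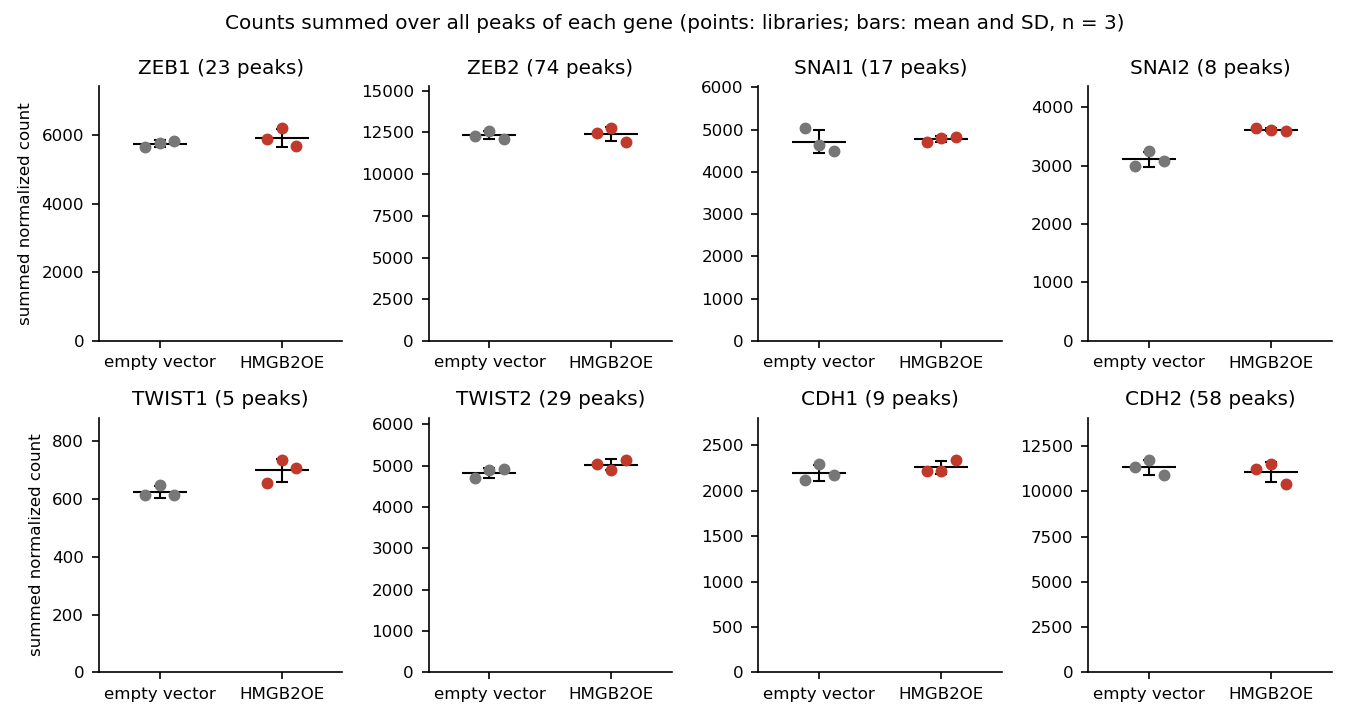
Normalized counts summed over all peaks of each gene (y axis, from 0, scaled per gene), with 1 point per library and the mean and SD of 3 libraries per condition. SNAI2 rose by 16.2% with no overlap between conditions, TWIST1 was separated without passing the test, and the other 6 genes overlapped.

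The summed counts of the 8 genes were also set against those of 99 tested genes of EMT-related lists over the 6 libraries, as a description. All points share the same libraries and their depth, and both conditions enter each correlation. SNAI2 was most alike to CDH11 (Pearson r = 0.98), the cadherin of mesenchymal and osteoblast cells, whose own sum was higher (log2 fold change 0.21, adjusted p = 0.00245 by edgeR). Within the 8 genes, ZEB2 and CDH2 were most alike (r = 0.91), followed by SNAI2 and TWIST1 (r = 0.85).

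The other genes of the pathway were read from 7 lists of 100 genes with 1825 tested peaks. Of these peaks 35 were higher (1.92%) and 37 lower (2.03%), beside 1.87% and 1.44% of all tested peaks. By summed counts, 4 of the 99 tested genes passed as higher and 3 as lower, where 9.23% of all genes passed. The 20 mesenchymal genes had 13 rises and 5 falls among 363 peaks (3.58% and 1.38%). CDH11 gave 8 of the rises and TNC, the matrix protein tenascin C, 4 rises and 1 fall. VIM, the mesenchymal intermediate filament vimentin, had 2 falls and a lower sum (log2 fold change -0.13, adjusted p = 0.0429 by edgeR). COL1A1, a fibrillar collagen chain, and SPARC, a matrix protein, each had 1 fall, while COL1A2, another collagen chain, had 1 rise. The sums of COL1A1, SPARC and COL1A2 did not pass (adjusted p = 0.997, 0.337 and 0.105 by edgeR).

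The 16 genes listed as other classical cadherins had 8 rises and 21 falls among 574 peaks (1.39% and 3.66%). CDH11, itself a cadherin, was counted with the mesenchymal genes and not here, and had 8 rises and 0 falls among 74 peaks. The lean of each list thus depends on where CDH11 was placed. CDH8, a neuronal cadherin, had 6 falls and a lower sum (log2 fold change -0.14, adjusted p = 0.0450 by edgeR), and CDH6 and CDH19 had 3 falls each. The CDH19 sum was also lower (log2 fold change -0.22, adjusted p = 0.0499), while those of CDH7 (0.18, adjusted p = 0.0202) and CDH22 (0.22, adjusted p = 0.0140) were higher. Among the called peaks of smallest adjusted p of the named cadherins, the largest fold was at CDH9. That peak had 43.8 ± 6.66 counts in empty vector and 116 ± 7.11 in HMGB2OE libraries (SD, n = 3 in each group), a rise of 1.39 on the log2 scale. CDH9 also had 2 falls, and its sum did not pass (log2 fold change -0.038, adjusted p = 0.646 by edgeR). CDH5 had 2 rises and 1 fall, the fall with a log2 fold change of -0.90 (adjusted p = 1.19e-05 by edgeR). The CDH5 sum did not pass (log2 fold change 0.049, adjusted p = 0.445 by edgeR).

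In the remaining lists 2.08% (epithelial genes) to 4.24% (catenins) of peaks were called in either direction, beside 3.31% of all tested peaks. The 22 epithelial genes, of which CLDN3 had no tested peak, had 3 rises and 0 falls among 144 peaks, at EPCAM, KRT8 and PKP3, and no sum passed. The 12 genes of TGF-beta signalling, the best known inducer of EMT, had 3 rises and 4 falls among 264 peaks. TGFBR3, a TGF-beta co-receptor, had 2 of the rises and a higher sum (log2 fold change 0.23, adjusted p = 0.00448 by edgeR), and SMAD3, a signal transducer, had 2 of the falls. The 13 other EMT factors had 3 rises, of which 2 were at TCF4, and 1 fall among 185 peaks. The 10 corepressors had 1 rise, at HDAC1, and 3 falls, of which 2 were at CTBP2, among 130 peaks. The 7 catenins, which tie cadherins to actin, had 4 rises and 3 falls among 165 peaks. CTNND2 had 1 of the rises and 2 of the falls, and its called peak of smallest adjusted p fell (log2 fold change -1.41, adjusted p = 5.96e-05 by edgeR).

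The words of the factors were counted in all 223 peaks as a description. The ZEB and SNAI word CACCTG was in 58 of them, beside 30.5% of all tested peaks, and the TWIST word CATCTG in 37.2%, beside 32.7%. The AP-1 word TGACTCA was in 33.6%, beside 28.0%. The SOX word ACAAAG was in 47.1%, beside 37.3%. Among the 5 called falls and the 4 called rises, CACCTG was in 1 and 0, CATCTG in 3 and 2, TGACTCA in 2 and 2, and ACAAAG in 5 and 1. Over all called falls and rises of the table, ACAAAG was in 41.8% and 41.1%, and CATCTG in 31.9% and 39.3%. TGACTCA was in 34.2% and 35.9%, and CACCTG in 28.9% and 23.5%. The peaks of the 8 genes were richer in A and T than all tested peaks, with a median GC content of 42.6% beside 46.2%, and the called falls were richer still (34.7%) than the called rises (49.0%). The part of base composition in these shares was not tested.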

How the data were processed

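ATAC-seq was performed on A375 cells, with 3 empty vector and 3 HMGB2OE libraries. The authors deposited raw counts per peak from featureCounts. Before that they trimmed (Trim Galore 0.6.7, cutadapt 4.0), used Bowtie 2 on hg38, and deduplicated in Picard. Their MACS2 peaks were called with public melanocyte data as the control, which could affect which peaks the table holds, and a Tn5 shift is not given in the sources used here. Counts were fitted here with edgeR 4.0.16 in R 4.3.3 (TMM, filterByExpr, quasi-likelihood F test, Benjamini–Hochberg over 150117 peaks or 18013 gene sums). Normalized counts are scaled to the mean effective library size. DESeq2 1.42.0 was an alternative. On simulated data from these libraries, 99.5% of planted peaks with a log2 fold change of 1.5 were recovered, with 7 false calls among 149883. The planted fold was larger than that of any of the 223 peaks (log2 fold changes -1.08 to 0.926), and all simulated peaks shared the same dispersion. Recovery at the folds reported here was not tested. The genes, lists and tests were chosen with earlier results of these data known. Named are each gene's strongest start-site peak, its called peaks (or largest rise and fall) and, per list, up to 4 genes with most called peaks. Genes and peaks named beyond this, such as peaks under the fold limit, further cadherins and the neighbours of SNAI2, were chosen after their values were seen.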

Additional observations from a re-analysis of the deposited data

How the results depend on the processing

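The 4 called rises became 8 and the pathway lists had 72 rises and 67 falls without the fold limit. The 5 called falls became 3 with GC-content offsets, alone or with the block. With 1 library left out in turn, called rises numbered 1 to 4 (1 without HMGB2OE replicate 1), called falls 2 to 4 (2 without empty vector replicate 2, 3 without HMGB2OE replicate 1) and rises in the pathway lists 23 to 35 (23 without HMGB2OE replicate 3). The cause was not tested, although each such fit has fewer libraries. The call of the summed SNAI2 counts held in all 16 alternatives.

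Values near 0 changed sign. The summed counts of ZEB2 had log2 fold changes of -0.0030 with library size only, -0.0093 with a loess trend, -0.020 without start-site peaks and -0.019 with windows of 10 Mb centred. The start-site peak of CDH1 had -0.021 with GC-content offsets and -0.016 with the block and GC-content offsets. Leaving out 1 library gave ranges of -0.051 to 0.18 for the TWIST1 start-site peak and -0.045 to 0.068 for that of CDH1. For summed counts the ranges were -0.015 to 0.034 for ZEB2, -0.014 to 0.066 for SNAI1 and -0.063 to 0.0082 for CDH2.

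Replicate numbers were shared between conditions, but deviations of same-numbered libraries correlated at -0.088, 0.19 and 0.13, so the numbers were not taken to pair the libraries. With the replicate block there were 4 called rises, 5 called falls, 1 called sum, and 40 rises and 40 falls in the pathway lists. Of all called peaks 56.4% were rises, 62.6% with library size only and 50.4% with a loess trend. The GC-content offsets and window centring of summed counts were added after seeing the data. Of the 9 called peaks, the weakest had a mean of 54.4 counts, and calling by count level was not tested.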
